A study of Homo sapiens with 6 samples.

Results

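The genes described here encode the SR proteins, the hnRNP proteins and a small set of other regulators of alternative splicing, measured in KYSE150, an established line of human esophageal squamous carcinoma cells. Members were the protein-coding genes whose symbol is SRSF followed by a number or starts with HNRNP, together with TRA2A, TRA2B, PTBP1, PTBP2, PTBP3, ESRP1, ESRP2, RBFOX2, MBNL1, MBNL2 and QKI. Pseudogenes were left out. This gave 50 of the 67140 gene identifiers in the deposited table, of which 14 were SR and TRA2 genes, 27 hnRNP genes and 9 other regulators. RNA sequencing compared 3 samples of cells carrying the control hairpin (shCtrl) with 3 samples carrying a hairpin against the lncRNA AC007128.1 (shAC007128.1). Per the methods of the study both are lentiviral lines selected with puromycin, with 1 hairpin per arm, so an effect of the hairpin's target and a difference between the lines cannot be told apart. No source used here says that the samples of a group were separate cultures, so p-values measure only the spread between these samples.

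SR proteins bind short sequences in exons through RNA recognition motifs and, through a tail rich in arginine and serine, help U1 and U2AF reach the flanking splice sites. The hnRNP proteins coat nascent transcripts and often act in the opposite sense, blocking splice sites or looping exons out. Both act on the same exons, so their relative amounts are known to set the inclusion of many alternative exons. Cell type regulators sit on top of this balance: ESRP1 and ESRP2 maintain epithelial exon choices, while RBFOX2, QKI, MBNL and PTBP proteins shape other programmes, several of them linked to epithelial-mesenchymal transition. Many genes of both classes carry exons that, when included, send the transcript to nonsense-mediated decay. A gene count holds productive and unproductive transcripts together, and no exon-level values were analysed here.

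Total counts were 65140326 to 78610457 in the shCtrl samples and 55764405 to 60158244 in the shAC007128.1 samples. AC007128.1 itself had 69, 33 and 53 counts in shCtrl replicates 1, 2 and 3 and 18, 37 and 15 in shAC007128.1 replicates 1, 2 and 3, so the groups overlapped and a fall of the targeted RNA was not detected (log2 fold change -0.77, SE 0.51, edgeR adjusted p = 0.271). Counts this low leave little power to detect a fall. The paper reports from qPCR that its hairpin lowered AC007128.1. The labelled cell type was visible in both groups. The 10 squamous and epithelial markers summed to 1853 to 1891 CPM in shCtrl and 2648 to 3193 CPM in shAC007128.1 samples. KRT5 and CDH1 were abundant, whereas KRT13 and SOX2 were at or under 5.17 CPM in all samples. The 5 fibroblast markers summed to 15.03 to 16.04 CPM in shCtrl and 20.9 to 23.9 CPM in shAC007128.1 samples, and the 3 endothelial markers to 2.12 to 3.11 and 0.302 to 2.02 CPM. The 5 leukocyte markers summed to 59.1 to 68.0 CPM in shCtrl and 14.8 to 24.2 CPM in shAC007128.1 samples, nearly all of it CD68 (log2 fold change -1.87, SE 0.20). Reads of the mitochondrial genome made up 9.69 to 10.2% of counts in shCtrl and 7.80, 7.68 and 9.72% in shAC007128.1 replicates 1, 2 and 3. The part of these differences in the values below was not tested. In bulk RNA, fewer expressing cells and less RNA per cell cannot be told apart.

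Of the 50 members, 45 passed the filter on low counts, and 5 had 0 counts in every sample. Those were SRSF12 and the 4 HNRNPC-like genes HNRNPCL1, HNRNPCL2, HNRNPCL3 and HNRNPCL4. At these depths a count of 0 allows up to 0.0373 to 0.0546 CPM per library (3 counts, counting error only). More members rose than fell in shAC007128.1 cells. At an adjusted p of at most 0.05, 24 of the 45 tested members rose (53.3%) and 3 fell (6.67%). Among all 19254 genes tested 21.0% rose and 19.8% fell, and among the 10057 genes with a mean of at least 10 CPM, where 42 of the members lie, 33.8% rose and 19.9% fell. The median log2 fold change was 0.31 over the members, against -0.02 over all genes tested and 0.12 over those with at least 10 CPM. Of the 18 tested members with at least 5% of their exonic bases shared with other genes, 12 rose and 1 fell, with a median of 0.47. Of the 27 tested with under 5% shared, 12 rose and 2 fell, with a median of 0.26. The part of shared bases in the rises was not tested. With the additional limit of a 2-fold change, 4 members were called higher, HNRNPLL, HNRNPM, HNRNPAB and HNRNPUL2-BSCL2, and 0 lower. That is 8.89% of the members, beside 5.57% of all genes called higher and 10.1% called lower, and 6.80% called higher and 4.90% called lower at 10 CPM or more. The count of 0 called lower was from edgeR and DESeq2, and it was also 0 at an unadjusted edgeR p under 0.05, while limma-voom called 1, HNRNPA1L2.

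Sample groups did not overlap for 31 of the 45 members (68.9%), beside 55.2% of all genes tested and 65.4% of those at 10 CPM or more, so this share was near that of other abundant genes. The count of calls depended on which sample was left out. Without shCtrl replicate 1, 2 or 3, the members that rose numbered 15, 15 and 14 and those that fell 1 each time. Without shAC007128.1 replicate 1, 18 rose and 4 fell, without replicate 2, 16 and 3, and without replicate 3, 26 and 5. The shares of all genes above are from the fit of all 6 samples. None are given for these smaller fits, so whether the members exceeded other genes there was not tested. Of the 24 higher members, 12 passed in every one of the 15 alternatives other than glmTreat, namely HNRNPLL, HNRNPM, HNRNPAB, HNRNPA2B1, HNRNPL, HNRNPK, HNRNPU, HNRNPA3, MBNL1, PTBP3, RBFOX2 and SRSF3. Of the 3 lower members, ESRP1 did. For these genes shAC007128.1 replicate 3 differed from the others of its group, as it was the lowest of its group for 31 of the 45 members (68.9%), beside 38.9% of all genes tested and 42.0% of those at 10 CPM or more.

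**Figure D1:**
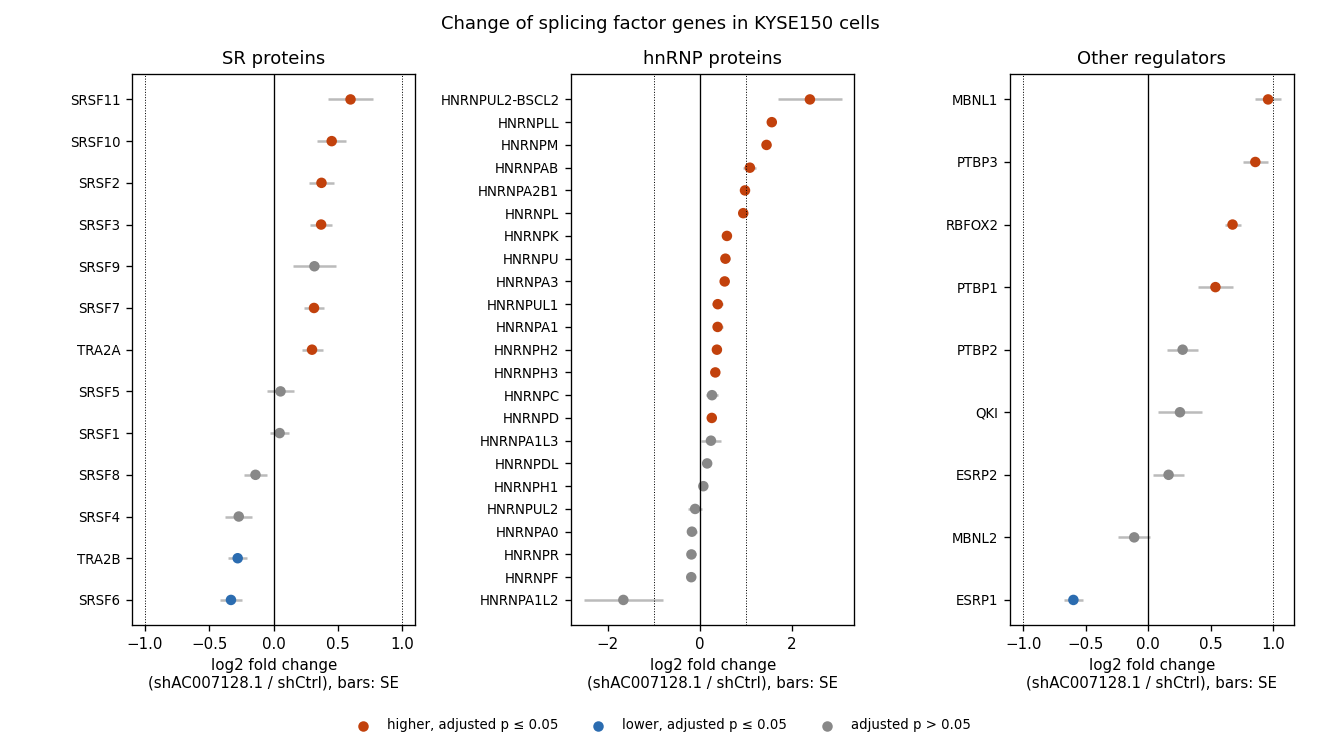
Log2 fold change (shAC007128.1 over shCtrl) of the 45 tested members on the x axis, with the standard error as bars, in 3 panels with their own x scales; red points rose and blue points fell at an adjusted p of at most 0.05, grey points did not pass, and dotted lines mark a log2 fold change of 1 and -1. The hnRNP panel has 14 red and 0 blue points, the SR panel 6 red and 2 blue, and the panel of other regulators 4 red and 1 blue.

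The hnRNP genes, the largest class, had the highest share of rises. The share was 46.2% for the SR and TRA2 genes, 44.4% for the other regulators and 33.8% for all genes with at least 10 CPM. Of 23 hnRNP genes tested, 14 rose (60.9%), 0 fell and 9 did not pass, with a median log2 fold change of 0.37. The count of falls was 0 with edgeR, also at an unadjusted p under 0.05, 0 with DESeq2 and 1 with limma-voom. Their summed level was 4654, 4560 and 4428 CPM in shCtrl replicates 1, 2 and 3 and 6857, 6531 and 5735 CPM in shAC007128.1 replicates 1, 2 and 3. The summed SR and TRA2 level moved less, from 1301 ± 41.2 CPM (SD, n = 3) to 1446 ± 3.92. The 9 other regulators summed to 1014 ± 48.6 CPM in shCtrl and 1423 ± 110 CPM in shAC007128.1 cells. All members together made up 6655 to 7003 CPM in shCtrl and 8731 to 9671 CPM in shAC007128.1 samples.

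**Figure D2:**
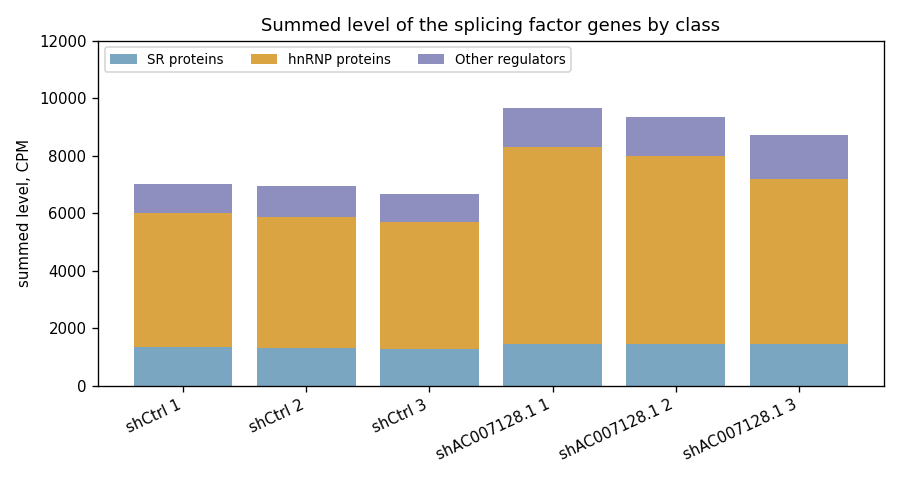
Summed level in CPM (y axis, from 0) of the members in each of the 6 samples (x axis), stacked by class. The hnRNP part is 4428 to 4654 CPM in shCtrl and 5735 to 6857 CPM in shAC007128.1. The SR part differs less, at 1259 to 1341 CPM in shCtrl and 1442 to 1450 CPM in shAC007128.1.

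Promoter sequence from RefSeq (GRCh38.p14) was found for 37 of the 45 tested members, and 250 bases before each start were searched on both strands. A gene with several starts counted as holding a word if any of its windows held it. The number of starts per gene was not matched between members and other genes. ESRP1, ESRP2, HNRNPA1, HNRNPA1L3, QKI, RBFOX2, SRSF2 and TRA2A were not among them. The CCAAT box (CCAAT) was in 21 of the 37 (56.8%), compared with 37.0% of all 27305 genes with a window and 42.4% of the 8132 among them with at least 10 CPM. The GC box (GGGCGG) was in 26 (70.3%), compared with 46.2 and 77.1%, and the E box (CACGTG) in 7 (18.9%), compared with 7.73 and 11.7%. An E2F-type word (TTTCCCGC, TTTCGCGC, TTTGCCGC or TTTGGCGC, which can overlap a GC box) was in 7 of the 37 (18.9%), compared with 3.40% of all genes and 6.10% of those with at least 10 CPM. These 7 were HNRNPA3, HNRNPK, HNRNPLL, HNRNPUL1, PTBP1 and SRSF10, which rose, and TRA2B, which fell. The TATA box (TATAAA) was in 6 (16.2%), compared with 13.0 and 7.27%. The following stretches lie before a RefSeq start (HNRNPL has a pair of starts, and the upstream one is shown), and were trimmed for printing to bases outside annotated exons, with these words in capitals. They are examples from members that rose with large folds and from the SR and TRA2 genes that fell. No rule set the choice among the risers, so these stretches cannot compare the directions. Stretches of MBNL1 (log2 fold change 0.96) and PTBP3 (0.86), with 0 CCAAT boxes, and of HNRNPUL2-BSCL2 (2.39), with 1, are not printed.
HNRNPLL, chr2:38603037-38603167, minus strand, log2 fold change 1.57: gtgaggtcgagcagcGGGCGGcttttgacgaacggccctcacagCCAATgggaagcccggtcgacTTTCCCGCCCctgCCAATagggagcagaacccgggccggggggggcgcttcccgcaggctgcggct
HNRNPAB, chr5:178204374-178204532, plus strand, log2 fold change 1.09: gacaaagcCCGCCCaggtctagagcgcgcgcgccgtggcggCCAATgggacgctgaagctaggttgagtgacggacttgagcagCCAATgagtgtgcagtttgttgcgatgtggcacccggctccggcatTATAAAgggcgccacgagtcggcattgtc
HNRNPL, chr19:38852348-38852597, minus strand, log2 fold change 0.95: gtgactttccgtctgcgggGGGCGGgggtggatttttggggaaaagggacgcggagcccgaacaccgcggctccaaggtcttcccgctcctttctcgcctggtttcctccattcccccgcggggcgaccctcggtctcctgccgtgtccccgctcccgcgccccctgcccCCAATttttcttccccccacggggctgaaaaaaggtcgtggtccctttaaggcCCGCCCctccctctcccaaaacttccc
TRA2B, chr3:185938104-185938264, minus strand, log2 fold change -0.28: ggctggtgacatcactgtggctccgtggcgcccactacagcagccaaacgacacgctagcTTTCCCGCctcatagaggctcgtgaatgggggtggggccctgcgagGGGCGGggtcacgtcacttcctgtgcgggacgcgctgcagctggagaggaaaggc
SRSF6, chr20:43457646-43457892, plus strand, log2 fold change -0.33: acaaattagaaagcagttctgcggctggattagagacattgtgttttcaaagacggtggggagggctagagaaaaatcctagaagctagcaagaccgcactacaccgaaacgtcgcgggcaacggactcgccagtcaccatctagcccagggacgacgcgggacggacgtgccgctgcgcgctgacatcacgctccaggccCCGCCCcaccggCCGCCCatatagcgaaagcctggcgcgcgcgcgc
HNRNPLL and HNRNPAB each hold 2 CCAAT boxes here and TRA2B and SRSF6 hold 0, while a GC box is present in all 5 stretches. Over all windows the CCAAT box was in 13 of the 20 higher members and in 8 of the 17 others. No CCAAT box was in the windows of HNRNPM, MBNL1 and PTBP3, which rose, whereas HNRNPF, HNRNPR, HNRNPA0 and MBNL2, with negative fold changes that did not pass, held it.

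HNRNPLL and HNRNPM had the largest fold changes after the read-through HNRNPUL2-BSCL2. HNRNPLL (ENSG00000143889, chromosome 2, 38561969 to 38603586 on hg38, minus strand) encodes the paralog of hnRNP L that is best known from activated lymphocytes, where it represses exons of CD45. It stood at 14.0, 13.8 and 13.9 CPM in shCtrl replicates 1, 2 and 3 and at 40.4, 44.0 and 39.0 CPM in shAC007128.1 replicates 1, 2 and 3. Every shAC007128.1 sample was thus well above every shCtrl sample, and the control values were nearly identical. Its log2 fold change was 1.57 (SE 0.09, edgeR adjusted p = 4.28e-05). HNRNPL, whose protein binds CA-rich RNA and regulates the same kind of exon, had 199, 189 and 191 CPM in shCtrl and 393, 377 and 346 CPM in shAC007128.1 cells, again without overlap. The log2 fold change of HNRNPL was 0.95 (SE 0.07, edgeR adjusted p = 9.25e-05), just inside the 2-fold limit. HNRNPL shares 8.64% of its exonic bases with another gene on the same strand. Per kilobase of transcript HNRNPL remained far more abundant, and HNRNPLL made up 3.59 ± 0.0715% (SD, n = 3) of the pair in shCtrl and 5.41 ± 0.338% in shAC007128.1 cells.

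HNRNPM (ENSG00000099783, chromosome 19, 8444767 to 8489114, plus strand) encodes hnRNP M, a GU-rich RNA binding protein that promotes the mesenchymal form of CD44 and competes with ESRP1. Its level was 86.6, 96.4 and 82.2 CPM in shCtrl and 241, 226 and 259 CPM in shAC007128.1 replicates 1, 2 and 3. The groups lay far apart, with a log2 fold change of 1.45 (SE 0.09, edgeR adjusted p = 5.00e-05). Among the 45 detected members HNRNPM moved from rank 23 to rank 10 by CPM per kilobase.

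HNRNPAB (ENSG00000197451, chromosome 5, 178204533 to 178211163, plus strand) encodes an A/B-type hnRNP that also acts in transcription. It had 193, 189 and 183 CPM in shCtrl and 466, 422 and 314 CPM in shAC007128.1 replicates 1, 2 and 3. All shAC007128.1 samples were higher, but they spread widely and replicate 3 was the lowest (log2 fold change 1.09, SE 0.14, edgeR adjusted p = 0.000865). HNRNPA2B1, which encodes the A2 and B1 proteins and is one of the main components of hnRNP particles, had 421, 413 and 414 CPM in shCtrl and 899.5, 862 and 707 CPM in shAC007128.1 cells. The log2 fold change was 0.98 (SE 0.09, edgeR adjusted p = 0.000256), and without shAC007128.1 replicate 3 it was over the fold limit at 1.07. HNRNPA2B1 shares 12.5% of its exonic bases with CBX3 and NFE2L3 on the opposite strand, and HNRNPAB 9.25% with PHYKPL, also opposite. The use of strand in counting is not given in the sources used here.

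HNRNPUL2-BSCL2 had the largest fitted change and the least certain one. It is an annotated read-through of HNRNPUL2 into BSCL2, and 100% of its exonic bases belong to those genes too, so its counts depend on how reads were divided. It stood at 3.94, 1.43 and 0.560 CPM in shCtrl and 15.1, 10.7 and 5.40 CPM in shAC007128.1 replicates 1, 2 and 3 (log2 fold change 2.39, SE 0.69, edgeR adjusted p = 0.0278). The call was lost without shCtrl replicate 2 (adjusted p = 0.0931) and without shAC007128.1 replicate 1 or 2 (edgeR adjusted p = 0.0774 and 0.0629), and over the leave-one-out fits the log2 fold change ran from 1.95 to 3.37. HNRNPUL2 itself had 192, 183 and 190.3 CPM in shCtrl and 201, 191 and 135 CPM in shAC007128.1 cells, with overlapping groups.

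HNRNPK, whose protein binds C-rich RNA and DNA, had the highest mean level of the members per kilobase of canonical transcript in both groups. HNRNPAB exceeded it in shAC007128.1 replicates 1 and 2, HNRNPA2B1 in shAC007128.1 replicate 1 and SRSF9 in shCtrl replicate 1. This order depends on the length used, as the HNRNPK transcript has 2889 bases and its annotated exons 5700, against 1770 and 2118 for HNRNPAB. HNRNPK had 455, 431 and 453 CPM in shCtrl and 697, 688 and 630.0 CPM in shAC007128.1 replicates 1, 2 and 3, a log2 fold change of 0.59 (SE 0.06, edgeR adjusted p = 0.000426) without overlap. HNRNPU, which encodes the scaffold attachment protein, rose by 0.56 on the log2 scale (SE 0.11) and HNRNPA3 by 0.54 (SE 0.06). Both share exonic bases with other genes, 19.0% of HNRNPU with COX20 and an antisense gene and 54.8% of HNRNPA3 mostly with NFE2L2 on the other strand, so their counts are uncertain to that extent.

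HNRNPA1 encodes the best studied splicing silencer, an antagonist of SRSF1 at many exons. Its level was 459, 447 and 434 CPM in shCtrl and 661, 603 and 489.8 CPM in shAC007128.1 replicates 1, 2 and 3. The groups did not overlap, although shAC007128.1 replicate 3 came close to the control range (log2 fold change 0.39, SE 0.11, edgeR adjusted p = 0.0245). This call passed in 1 of the 6 leave-one-out fits, the fit without shAC007128.1 replicate 3, and without the other samples the edgeR adjusted p was 0.0543 to 0.0873. The call was also lost with libraries scaled by size only and with no filter on low counts (edgeR adjusted p = 0.0536 and 0.0682). HNRNPA1 has 74 annotated pseudogenes in the table, whose counts came to 2.37% of its own, and the intronless copy HNRNPA1L2 varied from 0.413 to 11.9 CPM between samples. HNRNPA1L2 shares all of its exonic bases with another annotated gene. Its log2 fold change of -1.66 (SE 0.85, adjusted p = 0.165) did not pass with edgeR and became -3.23 without shAC007128.1 replicate 2 (edgeR adjusted p = 0.0122).

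Other hnRNP genes passed with smaller rises, HNRNPUL1 (log2 fold change 0.39), HNRNPH2 (0.37), HNRNPH3 (0.34) and HNRNPD (0.26), all without overlap between groups. Each was lost in 2 to 5 of the 6 leave-one-out fits, where the lost edgeR adjusted p values ran from 0.0538 to 0.122. HNRNPUL1 was also lost with the replicate number as a block (edgeR adjusted p = 0.0696). Both HNRNPUL1 and HNRNPD were lost with libraries scaled by size only and with no filter on low counts. HNRNPH2 shares 15.8% of its exonic bases with an annotated read-through on the same strand. The hnRNP H/F family, G-tract binding proteins, did not move as 1 unit. HNRNPH2 and HNRNPH3 rose, HNRNPH1 had a log2 fold change of 0.08 (SE 0.07) and HNRNPF of -0.18 (SE 0.09, adjusted p = 0.135). HNRNPF was nonetheless lower in each shAC007128.1 sample, at 265, 270 and 222 CPM, than in each shCtrl sample, at 295, 283 and 282 CPM. Log2 fold changes of the other hnRNP genes that did not pass were -0.18 for HNRNPR, -0.17 for HNRNPA0, -0.10 for HNRNPUL2, 0.16 for HNRNPDL, 0.24 for HNRNPA1L3 and 0.27 for HNRNPC. HNRNPR passed as lower without shAC007128.1 replicate 1 (edgeR adjusted p = 0.0404) and HNRNPDL as higher without shAC007128.1 replicate 3 (0.0209). HNRNPC ranged from 227 to 333 CPM among the shCtrl samples alone, and without shCtrl replicate 1 it passed (edgeR adjusted p = 0.0258).

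**Figure D3:**
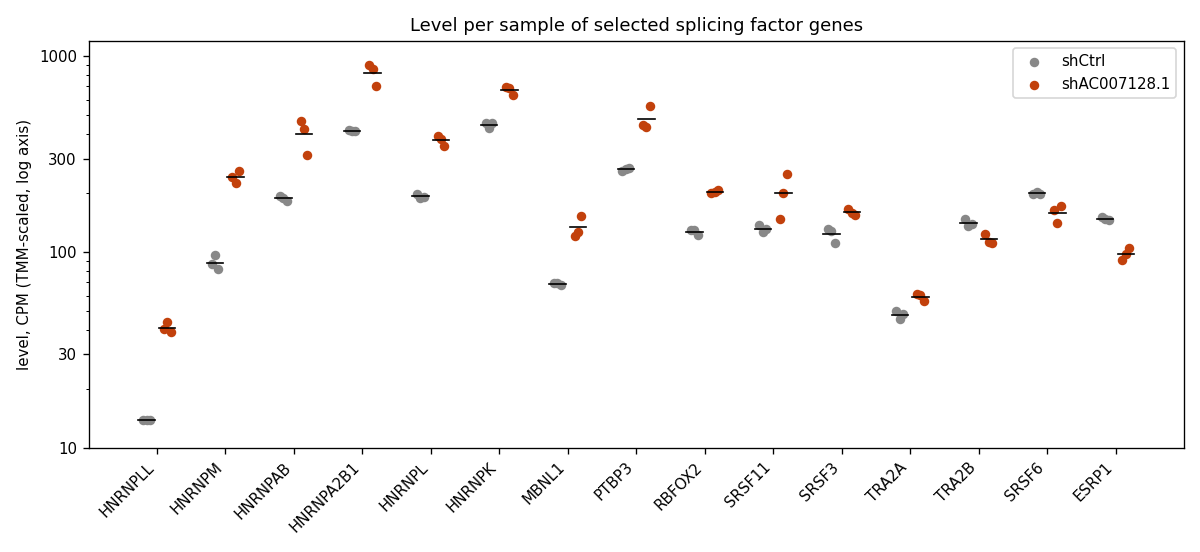
Level in CPM on a log y axis for 15 members (x axis), with a point for each of 3 shCtrl (grey) and 3 shAC007128.1 (red) samples and a line at each group mean. In each of these genes the groups are separate; HNRNPLL rises from about 13.9 to 41.1 CPM and ESRP1 falls from 148 to 97.7 CPM on average.

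Among the SR and TRA2 genes, 6 of 13 tested rose (46.2%), 2 fell (15.4%) and 5 did not pass, and no change reached 2-fold. Of all genes with at least 10 CPM, 33.8% rose and 19.9% fell. SRSF11, whose protein is an atypical SR factor found with U2AF, had the largest rise and the widest spread. It stood at 138, 127 and 131 CPM in shCtrl and at 147, 201 and 250.4 CPM in shAC007128.1 replicates 1, 2 and 3, the first of them just above the control range. The log2 fold change was 0.60 (SE 0.18, edgeR adjusted p = 0.0301), and 5 of the 6 leave-one-out fits lost it (edgeR adjusted p from 0.0538 to 0.0942), all but the one without shAC007128.1 replicate 1.

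SRSF10, which acts as a splicing repressor when dephosphorylated, for example after heat shock, had 61.3, 69.6 and 57.4 CPM in shCtrl and 78.3, 82.9 and 96.2 CPM in shAC007128.1 cells (log2 fold change 0.45, SE 0.11, edgeR adjusted p = 0.0159). SRSF2, a nuclear speckle protein and a frequent mutation target in myeloid disease, had 69.9, 71.7 and 68.0 CPM in shCtrl and 79.7, 91.3 and 100.1 CPM in shAC007128.1 cells (log2 fold change 0.37, SE 0.10, edgeR adjusted p = 0.0201). SRSF3, the smallest of the classical SR proteins, went from 132, 128 and 112 to 166, 159 and 154 CPM (log2 fold change 0.37, SE 0.08, edgeR adjusted p = 0.0113). None of the 3 genes had overlapping groups. SRSF3 passed in all 6 leave-one-out fits. SRSF10 was lost without shCtrl replicate 1 or 3 (edgeR adjusted p = 0.0617 and 0.0647), and SRSF2 without any 1 shCtrl sample or shAC007128.1 replicate 2 (0.0604 to 0.0761). SRSF2 shares 27.7% of its exonic bases, mostly with MFSD11 on the opposite strand.

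SRSF6, an SR protein whose excess is known to disturb skin differentiation in mice, fell. It had 198, 203 and 198 CPM in shCtrl and 164, 141 and 171 CPM in shAC007128.1 replicates 1, 2 and 3, so no shAC007128.1 sample reached the narrow control range. The log2 fold change was -0.33 (SE 0.09, edgeR adjusted p = 0.0191), and it was lost without any 1 of the shCtrl samples (edgeR adjusted p from 0.0572 to 0.0672). It shares 13.4% of its exonic bases with a longer gene on the same strand. SRSF4, its closest relative, was lower in every shAC007128.1 sample as well, at 47.7 to 48.4 CPM against 53.2 to 66.8 CPM, with a log2 fold change of -0.27 that did not pass (SE 0.11, adjusted p = 0.0792). SRSF7 rose by 0.31 on the log2 scale (SE 0.08, edgeR adjusted p = 0.0159), a call lost with the replicate block (edgeR adjusted p = 0.0513) and without any 1 shCtrl sample or shAC007128.1 replicate 2 (0.0525 to 0.0730). SRSF7 was also lost with libraries scaled by size only and with no filter on low counts (edgeR adjusted p = 0.0510 and 0.0507).

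The TRA2 genes, which encode a pair of related enhancer-binding proteins, went in opposite directions. TRA2A had 50.3, 45.4 and 48.2 CPM in shCtrl and 60.9, 60.0 and 55.9 CPM in shAC007128.1 replicates 1, 2 and 3. TRA2B had 147, 136 and 139 CPM in shCtrl and 124, 112 and 112 CPM in shAC007128.1 cells. Neither pair of groups overlapped. The log2 fold changes were 0.30 for TRA2A (SE 0.08, edgeR adjusted p = 0.0231) and -0.28 for TRA2B (SE 0.08, edgeR adjusted p = 0.0223). Both calls were fragile. TRA2A was lost with the replicate block (edgeR adjusted p = 0.0604) and in 5 leave-one-out fits (edgeR adjusted p from 0.0504 to 0.108), all but the one without shAC007128.1 replicate 3. TRA2A was also lost with libraries scaled by size only and with no filter on low counts (edgeR adjusted p = 0.0645 and 0.0722). TRA2B was lost without any 1 shCtrl sample or shAC007128.1 replicate 2 (0.0532 to 0.0901). On the per-kilobase scale the share of TRA2B in the pair was 55.6, 56.1 and 55.3% in shCtrl and 46.5, 44.4 and 46.0% in shAC007128.1 samples. The scale used canonical transcripts of 4178 bases for TRA2B and 1785 for TRA2A. By CPM without the length TRA2B was the higher of the pair in every sample, so their order depends on the length used.

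SRSF1, the prototype SR protein and an oncogene in several tissues, showed no detectable difference at 106, 107 and 105 CPM in shCtrl and 111, 116 and 101 CPM in shAC007128.1 cells (log2 fold change 0.05, SE 0.08, adjusted p = 0.662). SRSF5 and SRSF8 likewise did not pass, with log2 fold changes of 0.05 and -0.14, and SRSF8 passed as lower without shAC007128.1 replicate 3 (edgeR adjusted p = 0.0343). SRSF1 shares 35.1% of its exonic bases, mostly on the same strand. The directions of SRSF1 and SRSF5 turned when libraries were scaled by size only. SRSF9, the SR gene with the highest level per kilobase, had 187, 165 and 164 CPM in shCtrl and 258, 226 and 160.0 CPM in shAC007128.1 replicates 1, 2 and 3. Its shAC007128.1 replicate 3 lay below all controls while the others of its group lay above, and without that sample SRSF9 passed (log2 fold change 0.48, edgeR adjusted p = 0.00622). SRSF9 shares 46.7% of its exonic bases, mostly with genes on the opposite strand.

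Among the 9 other regulators, MBNL1, PTBP3, RBFOX2 and PTBP1 rose, ESRP1 fell and 4 did not pass. The shares were 44.4% higher and 11.1% lower, beside 33.8% and 19.9% of all genes with at least 10 CPM. ESRP1 (chromosome 8, 94641074 to 94707466) encodes the main epithelial splicing regulator, which keeps the epithelial exons of FGFR2, CD44 and CTNND1. It had 151, 147 and 146 CPM in shCtrl and 91.6, 97.4 and 104 CPM in shAC007128.1 replicates 1, 2 and 3. All shAC007128.1 samples were far below the controls, and with a log2 fold change of -0.60 (SE 0.07, edgeR adjusted p = 0.000773) it was the clearest fall among the members. ESRP2, its paralog, had 63.0, 60.1 and 64.8 CPM in shCtrl and 77.1, 75.2 and 57.8 CPM in shAC007128.1 cells, with overlap (log2 fold change 0.16, SE 0.12, adjusted p = 0.327). Without shAC007128.1 replicate 3 ESRP2 passed as higher (log2 fold change 0.27, edgeR adjusted p = 0.0145). On the per-kilobase scale ESRP1 made up 68.6, 69.0 and 67.2% of the pair in shCtrl and 51.9, 54.1 and 62.1% in shAC007128.1 samples. Beside this fall, 7 of the 10 squamous and epithelial markers rose, CDH1 (0.21, SE 0.06) and EPCAM (0.92, SE 0.07) among them, DSG3 fell (-1.09, SE 0.09) and KRT17 (0.45) and TP63 (-0.27) did not pass.

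RBFOX2, which binds GCAUG and favours mesenchymal exon choices at several ESRP targets, rose. Its level was 129, 130.0 and 122 CPM in shCtrl and 199.6, 202 and 206 CPM in shAC007128.1 replicates 1, 2 and 3, a tight and separate pair of groups (log2 fold change 0.67, SE 0.06, edgeR adjusted p = 0.000251). QKI, another regulator linked to the mesenchymal state, had 18.3, 27.7 and 19.6 CPM in shCtrl and 24.9, 29.1 and 24.2 CPM in shAC007128.1 cells. Its groups overlapped (log2 fold change 0.25, SE 0.17, adjusted p = 0.288), and it passed without shCtrl replicate 2, the highest control (log2 fold change 0.45, edgeR adjusted p = 0.0489).

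The muscleblind-like genes diverged. MBNL1, which drives the adult pattern of exons in differentiated cells, had 69.4, 69.3 and 67.7 CPM in shCtrl and 121, 127 and 153 CPM in shAC007128.1 replicates 1, 2 and 3. The controls were nearly equal and every shAC007128.1 sample was higher (log2 fold change 0.96, SE 0.10, edgeR adjusted p = 0.000396). It shares 15.9% of its exonic bases with antisense genes, MBNL1-AS1 among them. MBNL2 had 89.0, 91.9 and 83.6 CPM in shCtrl and 71.2, 75.8 and 97.7 CPM in shAC007128.1 cells, so its groups overlapped through shAC007128.1 replicate 3 (log2 fold change -0.11, SE 0.13, adjusted p = 0.518). Without that sample MBNL2 passed as lower (log2 fold change -0.27, edgeR adjusted p = 0.0176). MBNL1 accounted for 39.6, 38.8 and 40.6% of the per-kilobase level of the pair in shCtrl and 58.9, 58.5 and 56.9% in shAC007128.1 samples. On this scale MBNL2 was the higher of the pair in each shCtrl sample and MBNL1 in each shAC007128.1 sample. The scale used canonical transcripts of 5516 bases for MBNL1 and 4650 for MBNL2. All annotated exons cover 9989 and 5201 bases, so the order in shAC007128.1 samples depends on the length used.

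The polypyrimidine tract-binding genes all had positive fold changes. PTBP3 had 259, 266 and 269 CPM in shCtrl and 446, 436 and 554 CPM in shAC007128.1 replicates 1, 2 and 3, without overlap (log2 fold change 0.86, SE 0.10, edgeR adjusted p = 0.000585). PTBP1, the widely expressed repressor of neuronal exons, had 209.7, 254.5 and 175 CPM in shCtrl and 318.5, 283 and 325 CPM in shAC007128.1 cells. The spread of the controls was wide but did not reach the other group (log2 fold change 0.54, SE 0.14, edgeR adjusted p = 0.0175), and the call was lost without shCtrl replicate 1 (edgeR adjusted p = 0.0617) and without shAC007128.1 replicate 1 (0.0502). PTBP2, the neuronal paralog, was low at 19.7, 18.2 and 20.9 CPM in shCtrl and 21.4, 22.3 and 27.3 CPM in shAC007128.1 cells (log2 fold change 0.27, SE 0.13, adjusted p = 0.124). On the per-kilobase scale PTBP1 was the main paralog in both groups, with 60.5 ± 4.83% (SD, n = 3) of the family in shCtrl and 56.7 ± 2.44% in shAC007128.1 cells, and these shares overlapped between groups. By CPM without the length PTBP3 was higher than PTBP1 in every sample, so this order depends on the length used. The per-kilobase share of PTBP2 was 5.52, 4.51 and 6.4% in shCtrl replicates 1, 2 and 3. In shAC007128.1 replicates 1, 2 and 3 that share was 3.84, 4.32 and 4.41%, narrowly without overlap.

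**Figure D4:**
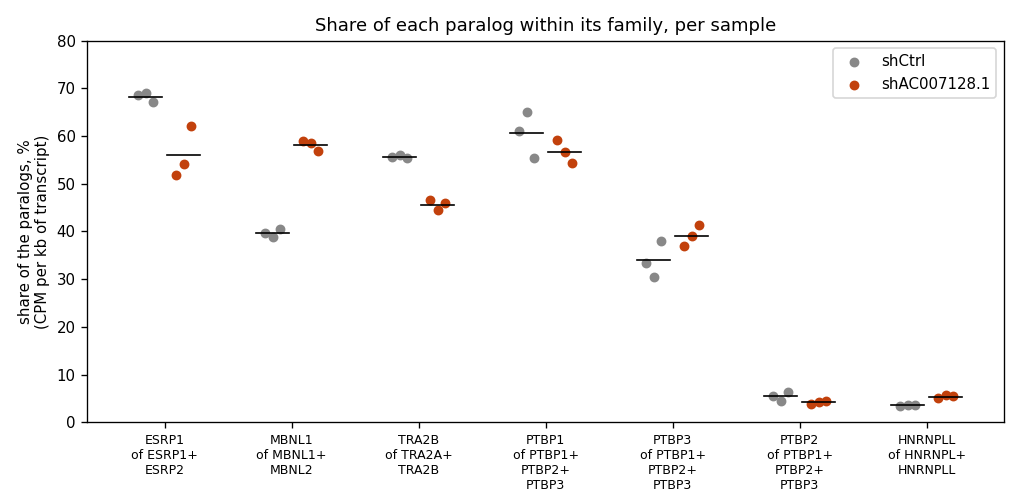
Share in percent (y axis) that 1 paralog held of the summed CPM per kilobase of its family, for each of 3 shCtrl (grey) and 3 shAC007128.1 (red) samples, with a line at the group mean. ESRP1, TRA2B and, by a narrow margin, PTBP2 hold a smaller share and MBNL1 and HNRNPLL a larger share in every shAC007128.1 sample. The shares of PTBP1 and PTBP3 overlap between groups.

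Some members lie near each other, and differences within these pairs were not tested. HNRNPLL and SRSF7 lie 140.0 kb apart on chromosome 2 and had log2 fold changes of 1.57 and 0.31. HNRNPR and SRSF10, 620.0 kb apart on chromosome 1, had -0.18 and 0.45. HNRNPD and HNRNPDL, paralogs 48.1 kb apart on chromosome 4, had 0.26 and 0.16.

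The other genes of the splicing machinery, in 7 lists, also had more rises than falls. Of 129 identifiers tested, 55 rose (42.6%), 9 fell (6.98%) and 65 did not pass, with a median log2 fold change of 0.24, compared with 53.3% and 6.67% of the members and 33.8% and 19.9% of all genes with at least 10 CPM. The U1, U2 and Sm core proteins had 8 of 12 genes higher and a median of 0.48, led by SNRPD3 (log2 fold change 0.94, SE 0.09) and SNRPG (0.79, SE 0.10). None of the 12 fell with edgeR, DESeq2 or limma-voom, or at an unadjusted edgeR p under 0.05. For recognition of the 3 prime splice site, 6 of 14 rose and 2 fell. SF3A1 (0.80) and SF3B4 (0.74), subunits of the U2 particle, rose, while the branch point binding protein gene SF1 (-0.46, SE 0.06) and PUF60 (-0.27, SE 0.07) fell. In the tri-snRNP and catalytic core 10 of 21 rose, among them SNRNP40 (0.59) and CDC5L (0.58), and 1 fell, PRPF4 (-0.28, SE 0.06). SNU13 had -0.20 (SE 0.08) and did not pass.

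Next came genes that act on the SR proteins themselves. Of 10 kinase and import genes, 3 rose (beside 33.8% of all genes with at least 10 CPM), including the SR protein kinase gene SRPK2 (log2 fold change 0.54, SE 0.08) and TNPO3 (0.50, SE 0.07), whose protein imports SR proteins to the nucleus. DYRK1A, a kinase gene of the same list, had 51.2, 51.7 and 52.7 CPM in shCtrl and 23.9, 22.2 and 51.2 CPM in shAC007128.1 replicates 1, 2 and 3, the last close to the controls (log2 fold change -0.68, SE 0.30, adjusted p = 0.118), and CLK3 had -0.21. The count of falls in this list was 0 with edgeR, also at an unadjusted p under 0.05, 0 with limma-voom and 1 with DESeq2, DYRK1A. Of 20 SR-related genes tested, 10 rose, including SRRM1 (0.73, SE 0.11) and SON (0.52, SE 0.08), and 1 fell, CLASRP (-0.40, SE 0.08), while THRAP3 (-0.12) did not pass. Of the 14 genes of nonsense-mediated decay and the exon junction complex, 3 rose (21.4%, under the 33.8% of all genes with at least 10 CPM), including SMG5 (0.47) and EIF4A3 (0.48), and 1 fell, CASC3 (-0.40), while MAGOH (-0.21, SE 0.24) did not pass.

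The remaining list, other splicing regulators, had 15 of 38 identifiers higher (39.5%) and 4 lower (10.5%), beside 33.8% and 19.9% of all genes with at least 10 CPM. CELF1 (0.65, SE 0.07) and FUBP1 (0.55, SE 0.06) rose, and TARDBP, which encodes TDP-43, was called higher at 1.12 (SE 0.22). Among the paraspeckle protein genes SFPQ and PSPC1 fell and NONO rose (0.50, SE 0.12). SFPQ had 495, 505.5 and 492 CPM in shCtrl and 299, 317 and 334 CPM in shAC007128.1 cells (log2 fold change -0.65, SE 0.06, edgeR adjusted p = 0.000277). PSPC1 had a log2 fold change of -0.81 (SE 0.09). RBFOX3, a neuronal relative of RBFOX2, was called lower at -4.02 (SE 0.48), from 1.30 to 3.02 CPM in shCtrl to 0.0728 to 0.178 CPM in shAC007128.1 samples, which were 95, 213 and 205 counts in shCtrl and 10, 4 and 10 counts in shAC007128.1 replicates 1, 2 and 3.

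**Figure D5:**
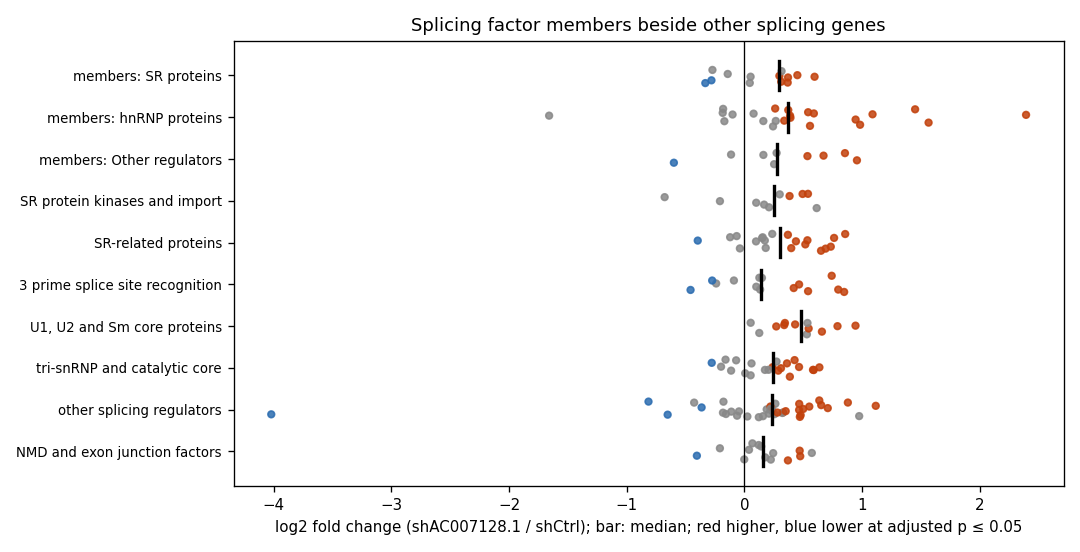
Log2 fold change (x axis, shAC007128.1 over shCtrl) of each tested gene in the 3 member classes and 7 lists of other splicing genes (y axis), with a black bar at each median; red points rose and blue points fell at an adjusted p of at most 0.05. All medians lie above 0, from 0.14 for recognition of the 3 prime splice site to 0.48 for the U1, U2 and Sm core proteins. The median of all genes with at least 10 CPM was 0.12, so the lowest lists lie near it.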

How the data were processed

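The 6 libraries were poly-A selected, paired-end and read on an Illumina NovaSeq. After cleaning, reads were aligned by the authors to hg38. The methods name TopHat v2.0.9 and the submitters' processing notes TopHat2 2.0.6. The deposited table holds estimated counts for each gene as integers, with no normalization by the authors. The counting program, annotation and use of strand are not given in the sources used here. Members and gene lists were chosen with earlier results of these data known. GENCODE gave symbols, positions and lengths for 60357 of the identifiers (89.9%).

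Identifiers were filtered with filterByExpr, given TMM factors and compared by the quasi-likelihood test of edgeR 4.0.16 in R 4.3.3, with Benjamini-Hochberg adjustment over all 19254 tested. Every adjusted p comes from this test unless another tool is named. An SE was obtained from the fold change and the square root of its F statistic. CPM used the TMM factors, and CPM per kilobase the Ensembl canonical transcript. Orders and shares per kilobase depend on this choice, and the length of all annotated exons was not used for them. Named by rule were members past the 2-fold limit, the 4 largest significant rises and falls per class, every TRA2 gene and other regulator, the 3 highest members per kilobase, and from each list the 2 smallest p values per direction and genes past the 2-fold limit; other members have a fold change. SRSF4, HNRNPF, NONO, the promoter words and the printed stretches were chosen after values were seen. The steps were tested on simulated counts. Alternatives were DESeq2 1.42.0, limma-voom (limma 3.58.1), other scalings and filters, the replicate block, counts divided by 4, thinned libraries, glmTreat against a fold of 1.2 and leaving out each sample. Deviations of same-numbered samples correlated at 0.031, -0.025 and -0.030, so the numbers were not taken to pair samples.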

Additional observations from a re-analysis of the deposited data

How the results depend on the processing

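No called member changed direction under any alternative in which it was tested. The 24 higher members numbered 14 to 26 across the fits without 1 sample each and 12 when glmTreat tested against a fold of 1.2. The 3 lower members numbered 1 to 5 without 1 sample each and 1 with glmTreat. Shares of all genes are not given for the alternatives, so these counts cannot be set beside a background. With glmTreat the other splicing genes gave 34 higher and 4 lower in place of 55 and 9. The 0 members called lower became 1, HNRNPA1L2, with limma-voom and with the replicate block, and were 0 to 1 without 1 sample each. The 4 members called higher were 3 to 5 without 1 sample each and 4 otherwise. With the replicate block 21 members rose and 4 fell, SRSF7, TRA2A and HNRNPUL1 lost their calls (log2 fold changes 0.31, 0.30 and 0.38), and no other call of a member was lost. Scaling by library size only, under which the median log2 fold change of all genes moved from -0.02 to -0.10, gave 19 and 4, and no filter 17 and 3. SRSF7, TRA2A, HNRNPA1, HNRNPD and HNRNPUL1 lost their calls under both, and SRSF2 and SRSF11 with no filter. DESeq2, counts divided by 4 and thinned libraries each gave 24 and 3. Signs turned only for members near 0 that were not called: with library size only SRSF1 (-0.027) and SRSF5 (-0.019), and without 1 sample each SRSF5 (-0.0059 without shCtrl replicate 3, up to 0.15) and HNRNPUL2 (from -0.21 to 0.051, the latter without shAC007128.1 replicate 3). The cause of these changes was not tested. The fits that left 1 sample out changed both the number of samples and which samples remained. Among tested members the lowest counts, where depth limits precision, were in HNRNPA1L2 (24 in shAC007128.1 replicate 3), HNRNPUL2-BSCL2 (38 in shCtrl replicate 3) and HNRNPA1L3 (113 in shAC007128.1 replicate 3).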
